A study of Mus musculus with 8 samples.

Results

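Basal cells of the mouse mammary gland were sorted by 2 surface or reporter signals, and the question here is where the effect of 1 gate on gene expression depended on the other. For each gene the Tspan8 effect (Tspan8-high minus Tspan8-negative, in log2 units) was taken among Lgr5+ cells and among Lgr5- cells, and the second was subtracted from the first. That difference is the interaction, and it is 0 where the effects of both gates simply add on the log2 scale. It used all 8 libraries of the series, 2 for each of the 4 populations Lgr5-T8-, Lgr5+T8-, Lgr5-T8hi and Lgr5+T8hi, where T8 stands for Tspan8. Genes were then sorted by which population stood apart from the other 3.

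All cells came from untreated 10-week-old female C57BL/6 mice carrying Lgr5-GFP-IRES-CreERT2, an allele that places green fluorescent protein and a tamoxifen-inducible Cre recombinase under control of the Lgr5 locus. Every population, Lgr5- ones included, carries this allele and was sorted as mammary basal. Each population has 1 library in batch 1 and 1 in batch 2, and the batch equals the replicate number. Separate mice, pooling and gate positions are not given in the labels, so the p-values describe how far these libraries spread, which may be technical variation. In each list of values below, the library of batch 1 comes before that of batch 2, and levels are counts per 1000000 mapped to genes (CPM).

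The mammary duct has an outer basal layer of contractile cells on a basement membrane and an inner luminal layer that makes milk. Lgr5 is a receptor for R-spondins, secreted proteins that strengthen Wnt signalling, and it marks stem cells in several epithelia. Tspan8 is a tetraspanin, a membrane protein that organises adhesion molecules and receptors in patches of the cell surface. A population defined by both markers can differ from what the markers do separately, and only a design with all combinations of the gates can measure this.

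Each library held 24571300 to 38384875 counts, and a level of 3 counts corresponds to 0.0799 to 0.120 CPM, a limit that covers counting error only. The basal label was checked against marker genes. The basal keratins Krt5 (2106 to 2753 CPM) and Krt14 (3708 to 6236 CPM) and the contractile actin Acta2 (3330 to 6760 CPM) were abundant in all 8 libraries. The luminal keratin Krt8 was at 427 to 835 CPM, the luminal progenitor factor Elf5 at 0.718 to 7.70 CPM, the endothelial adhesion molecule Pecam1 at 25.2 to 138 CPM and the leukocyte marker Ptprc at 1.04 to 8.51 CPM, so no defining marker of these other cells was at 0. In bulk RNA, fewer cells of a type and less RNA per cell cannot be told apart.

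Both sort genes were examined first. Tspan8 was at 289 and 261 CPM in Lgr5+T8hi, 167 and 150 CPM in Lgr5-T8hi, 10.6 and 6.82 in Lgr5+T8- and 4.37 and 3.16 in Lgr5-T8-. The T8hi libraries were thus all above the T8- libraries. Its interaction was -0.41 ± 0.19 (log2, ± SE), and it did not pass the threshold (adjusted p 0.433, edgeR quasi-likelihood F-test over 16526 genes). Lgr5 was at 174 and 193 CPM in Lgr5+T8hi, 185 and 212 in Lgr5+T8-, 119 and 129 in Lgr5-T8hi and 58.4 and 50.5 in Lgr5-T8-. Its Lgr5- libraries were below its Lgr5+ libraries, but the Lgr5-T8hi libraries kept most of the Lgr5+ level and the Lgr5-T8- libraries did not. The interaction of Lgr5 was -1.30 ± 0.15, with an adjusted p of 0.00164 in edgeR, and it was -1.12 in batch 1 and -1.48 in batch 2. The Tspan8 effect on Lgr5 was -0.11 ± 0.11 among Lgr5+ cells and 1.18 ± 0.11 among Lgr5- cells. The Lgr5 gate therefore did not separate Lgr5 mRNA equally at both levels of Tspan8, and every statement below is about the sorted gates.

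Of the 16526 genes tested, 421 (2.55%) had an interaction past an adjusted p of 0.05 in edgeR. In 361 genes (2.18%) it was positive, meaning that the Tspan8 effect was higher in Lgr5+ than in Lgr5- cells, and in 60 (0.363%) it was negative. The median interaction was 1.74 over the positive genes, -0.87 over the negative genes and -0.03 over all genes tested. In 324 genes the interaction was at least 1 in size and in 142 at least 2. All 421 had the same sign in both batches, but the calls came from these same libraries, so this is no separate check. At an unadjusted p under 0.05 there were 1270 positive and 680 negative genes, 11.8% of those tested. The calls rest on the batch as a block: without it 1 gene passed with a positive and 0 with a negative interaction. The gene was Il1r2, described with the Lgr5-T8- genes below. All 421 kept their sign, but with every population in both batches the block hardly alters the estimates, so this says little.

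Among the 421 genes, the Tspan8 effect passed its own test only among Lgr5+ cells in 251 and only among Lgr5- cells in 104. It passed in both with the same sign in 38 and with opposite signs in 21, and in neither in 7. The Lgr5 effect passed only among T8- cells in 228, only among T8hi cells in 97, in both with the same sign in 29, in both with opposite signs in 40 and in neither in 27. These counts describe genes that were chosen for unequal effects. Over all genes tested, the Tspan8 effect was called upward in 7.27% and downward in 2.17% among Lgr5+ cells, and in 3.70% and 3.36% among Lgr5- cells. The Lgr5 effect was called upward in 2.29% and downward in 1.05% among T8hi cells, and in 3.81% and 5.05% among T8- cells. The plot of the Tspan8 effect with and without Lgr5 shows the called genes on either side of the line of equal effects.

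**Figure D1:**
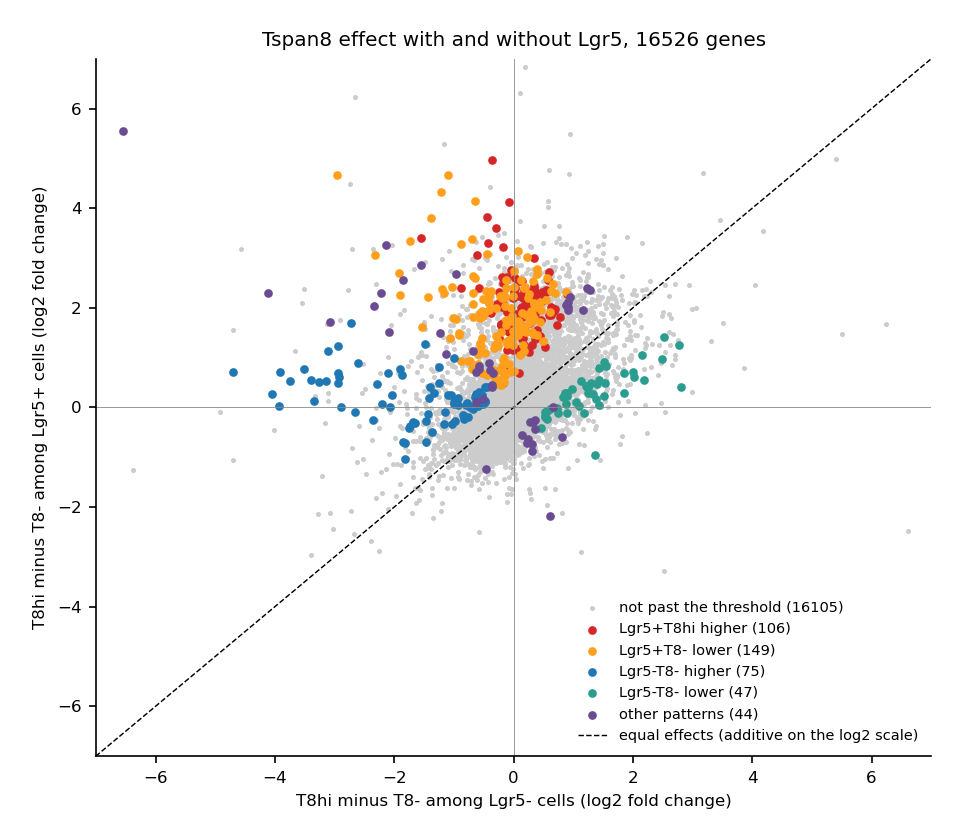
Each point is 1 of 16526 genes. The x axis is the log2 fold change of T8hi over T8- among Lgr5- cells and the y axis the same among Lgr5+ cells, with 1 gene outside the axes. Genes on the dashed line have equal effects. The 421 coloured genes passed the interaction threshold, and the 361 positive ones lie above the line.

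Called genes fell mostly into 4 patterns. The fitted log2 means of the 4 populations were sorted for each gene, and the widest gap between neighbours gave the class. In 389 of the 421 genes (92.4%) this gap set 1 population apart from the other 3, against 74.2% of all genes tested. Lgr5+T8- was the lower population in 149 genes (0.902% of those tested), Lgr5+T8hi the higher in 106 (0.641%), Lgr5-T8- the higher in 75 (0.454%) and Lgr5-T8- the lower in 47 (0.284%). By contrast Lgr5-T8hi stood apart in 3 genes, 1 of them higher (0.00605%) and 2 lower (0.0121%). For the 4 large classes, in the order given, the shares of called genes were 35.4%, 25.2%, 17.8% and 11.2%. Over all genes tested these classes held 7.07%, 8.53%, 14.1% and 14.6%, so the 2 Lgr5-T8- classes were near that share. Lgr5-T8hi higher and lower held 3.35% each of all genes tested. Lgr5+T8hi lower (3 calls) and Lgr5+T8- higher (6 calls) held 11.7% and 11.5%. Since the class and the call come from the same fit, these counts are a description.

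**Figure D2:**
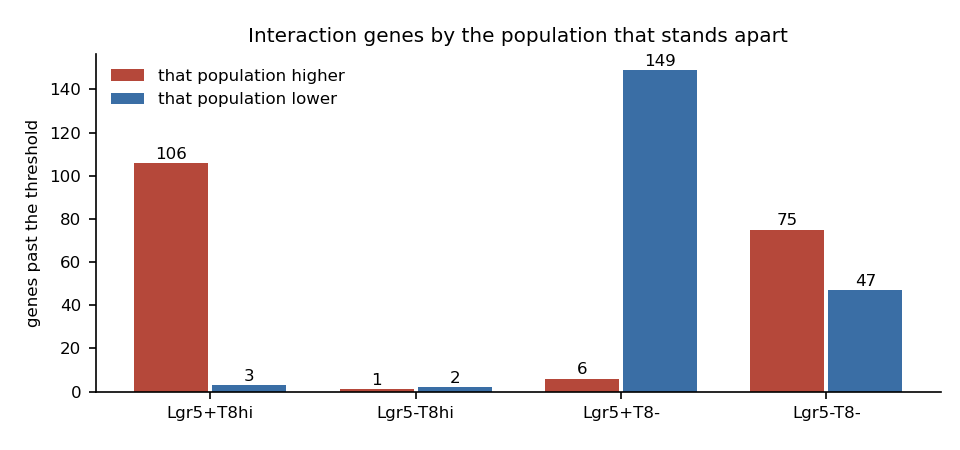
Bars count the genes past the interaction threshold whose widest gap sets the named population (x axis) above or below the other 3, and the y axis is the number of genes. The 4 tall bars are Lgr5+T8- lower (149), Lgr5+T8hi higher (106), Lgr5-T8- higher (75) and Lgr5-T8- lower (47).

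The classes differed in how often they recurred within a batch. The Lgr5-T8- higher class was found again in each batch alone for 72 of 75 genes and the Lgr5-T8- lower class for 43 of 47. It recurred for 96 of 149 genes in the Lgr5+T8- lower class and for 61 of 106 in the Lgr5+T8hi higher class. Those last 2 classes shade into each other. In 101 of the 106 Lgr5+T8hi genes Lgr5+T8- was the lowest population, and in 97 of the 149 Lgr5+T8- genes Lgr5+T8hi was the highest. Of the 361 positive genes, 214 (59.3%) had Lgr5+T8hi highest and Lgr5+T8- lowest, an order held by 8.45% of all genes tested.

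In 75 called genes Lgr5-T8- stood apart upward, among them Pappa2 and Zfhx4. Pappa2, a protease that cleaves insulin-like growth factor (IGF) binding proteins and so releases IGF, was at 25.6 and 16.2 CPM in Lgr5-T8- and at 1.68 to 4.50 CPM in the other 6 libraries. Its fitted level in Lgr5-T8- was 20.4 CPM, where the other populations combined additively give 2.73 CPM. The interaction was 2.90 ± 0.29 (adjusted p 0.000661, edgeR), and it was 2.67 in batch 1 and 3.24 in batch 2. Zfhx4, which encodes a large zinc finger homeodomain protein, was at 46.2 and 36.3 CPM in Lgr5-T8- and at 3.72 to 7.22 CPM elsewhere. Both Lgr5-T8- libraries thus stood clear of all others for both genes. The interaction of Zfhx4 was 2.56 ± 0.24 (adjusted p 0.000548, edgeR), with a fitted 41.1 CPM in Lgr5-T8- against an additive 6.98 CPM. Pappa2 (Entrez 23850) lies on chromosome 1 at 158711727 to 158960451 and Zfhx4 (Entrez 80892) on chromosome 3 at 5218218 to 5415861 in GRCm38.p6.

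Serpinb2 and Lars2 had larger interactions, but their calls rested on single libraries. Serpinb2, a plasminogen activator inhibitor, was at 46.5 and 30.5 CPM in Lgr5-T8- and at 0.220 to 2.25 CPM in the other 6 libraries, and its interaction was 5.41 ± 0.88 (adjusted p 0.0268, edgeR). Its call was lost without Lgr5+T8hi replicate 2 (adjusted p 0.0976), Lgr5-T8- replicate 1 (0.0803) or Lgr5-T8- replicate 2 (0.0934). Lars2 encodes the enzyme that charges the mitochondrial leucine transfer RNA. It was at 1188 and 796 CPM in Lgr5-T8-, at 216 and 131 in Lgr5+T8hi, at 149 and 108 in Lgr5-T8hi and at 103 and 135 in Lgr5+T8-, so that only the Lgr5-T8- libraries were high. The interaction of Lars2 was 3.43 ± 0.37 (adjusted p 0.00967, edgeR), and without Lgr5-T8- replicate 1 or 2 its adjusted p was 0.210 or 0.160. Of the other 16 mitochondrial transfer RNA synthetases, a list chosen after the values were seen, 0 were called, and their interactions ran from -0.56 to 0.24 with a median of -0.01.

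A set of 3 short gene models without a symbol had the profile of Lars2, and they were singled out after their values were seen. The gene with Entrez identifier 100628626, of 82 bases, was at 1068 and 693 CPM in Lgr5-T8- and at 46.7 to 122 CPM elsewhere, with an interaction of 4.28 ± 0.56 (adjusted p 0.0381, edgeR). Gene 100628579, of 87 bases, was at 31.4 and 21.1 CPM in Lgr5-T8- and at 2.10 to 6.63 CPM elsewhere, with 3.63 ± 0.37 (adjusted p 0.0022, edgeR). Gene 100628584, also of 87 bases, was at 3.97 and 3.82 CPM in Lgr5-T8- and at 0.265 to 0.923 CPM elsewhere, with 3.77 ± 0.68 (adjusted p 0.0168, edgeR). In each of them both Lgr5-T8- libraries were above all others. Gene 100628626 lost its call without either Lgr5+T8hi library (adjusted p 0.104 and 0.138), either Lgr5-T8hi library (0.095 and 0.174) or either Lgr5-T8- library (0.284 and 0.212). Gene 100628584 lost it without Lgr5+T8hi replicate 1 (0.244) or Lgr5+T8- replicate 1 (0.0566).

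Il1r2, a decoy receptor that binds interleukin 1 without signalling, was the gene that also passed without the batch block, and it was singled out for that. It was at 7.03 and 6.25 CPM in Lgr5-T8-, 2.13 and 2.23 in Lgr5+T8hi, 1.04 and 0.959 in Lgr5-T8hi and 0.661 and 0.678 in Lgr5+T8-. The 4 populations did not overlap, and the replicates lay close together. Its interaction was 4.43 ± 0.34 (adjusted p 9.49e-05, edgeR). Its Tspan8 effect was 1.70 ± 0.26 among Lgr5+ cells and -2.73 ± 0.22 among Lgr5- cells, so the sign turned.

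Nrg1, a basal cell ligand of the ErbB receptors on neighbouring cells, was at 59.1 and 26.9 CPM in Lgr5-T8-. It was at 23.6 to 26.4 CPM in the other libraries of batch 1 and at 11.3 to 12.4 in those of batch 2. Across batches the lower Lgr5-T8- library was only just above the highest of the others, while within each batch Lgr5-T8- was clearly above the rest. Its interaction was 1.05 ± 0.14 (adjusted p 0.00285, edgeR), with 1.10 in batch 1 and 0.99 in batch 2. Nrg1 and Lgr5 itself were the called members among 21 basal epithelial markers, 1 in each direction, and the median of that list was -0.06. They are 9.52% of the list, against 2.55% called over all genes tested, but Lgr5 is itself a sort gene. Of the ErbB receptors and ligands, 2 of 15 were called, both positive: Nrg1, and Areg, the amphiregulin gene described with the Lgr5+T8hi genes.

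The IGF axis had 5 of 18 tested members called (27.8%), all positive, with a median of 0.26, where 2.18% of all genes tested were called positive. Lgr5-T8- was the higher population in 3 of the 5 and Lgr5+T8- the lower in the other 2. Htra1, a secreted protease that can cut IGF binding proteins, was at 74.9 and 103 CPM in Lgr5-T8- and at 30.4 to 50.0 CPM in the other 6 libraries. The 2 ranges did not overlap, and its interaction was 1.06 ± 0.14 (adjusted p 0.00233, edgeR). Igfbp4, a binding protein that holds IGF in the tissue, was at 68.7 and 75.5 CPM in Lgr5+T8hi, 53.1 and 62.0 CPM in Lgr5-T8hi, 34.8 and 40.8 in Lgr5+T8- and 87.4 and 108 in Lgr5-T8-. Its 4 populations did not overlap. It had an interaction of 1.70 ± 0.12 (adjusted p 9.49e-05, edgeR), with 1.70 in each batch, and the Tspan8 effect was 0.94 ± 0.09 in Lgr5+ and -0.76 ± 0.09 in Lgr5- cells. The count for this list was 3 without either Lgr5+T8hi library or without Lgr5+T8- replicate 2, and 4 to 6 in the other fits that left out a library.

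Matrix genes were called in both directions. Of 26 basement membrane genes 4 were called, all positive (median 0.29), and of 24 other collagens 5 were positive and 2 negative (median 0.35). Over all genes tested, 2.18% were positive and 0.363% negative. Col23a1, a membrane-spanning collagen, was at 22.8 and 20.6 CPM in Lgr5-T8- and at 5.54 to 7.43 CPM elsewhere, with an interaction of 1.39 ± 0.20 (adjusted p 0.00392, edgeR) and 1.39 in each batch. Col4a1, a chain of the main basement membrane collagen, was at 2798 and 2675 CPM in Lgr5-T8- and at 956 to 1350 CPM elsewhere. Its interaction was 0.83 ± 0.15 (adjusted p 0.0126, edgeR), which set a fitted 2740 CPM against an additive 1541 CPM. Neither gene had an Lgr5-T8- library within the range of the others. The call of Col4a1 was lost without Lgr5+T8hi replicate 1 (0.0742) or 2 (0.0895) or Lgr5-T8hi replicate 1 (0.0812) or 2 (0.0552). Its neighbour Col4a2, whose annotation overlaps it by a short stretch, had 0.71 ± 0.14 and was lost in 6 of the 8 such fits, with an adjusted p of at most 0.141 without Lgr5-T8hi replicate 1. The basement membrane count was 1 without Lgr5+T8hi replicate 1 or 2 or Lgr5-T8hi replicate 2, and it rose to 9 without Lgr5-T8- replicate 2. The other collagens count was 2 without Lgr5+T8hi replicate 2 and 4 without Lgr5+T8hi replicate 1 or Lgr5+T8- replicate 2.

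Sema3d, Plin4 and Krt1 were high in Lgr5-T8- too. Sema3d, a secreted guidance molecule, was at 37.5 and 26.2 CPM in Lgr5-T8- and at 4.16 to 11.1 CPM elsewhere, without overlap, and its interaction was 1.36 ± 0.19 (adjusted p 0.00383, edgeR). Plin4, a lipid droplet coat protein, was at 36.1 and 21.4 CPM against 5.34 to 14.1 CPM, with an interaction of 1.80 ± 0.20 (adjusted p 0.00121, edgeR). Krt1, a keratin of the outer layers of skin, was at 6.85 and 4.19 CPM in Lgr5-T8- and at 0.315 to 0.634 CPM elsewhere, with an interaction of 4.28 ± 0.52 (adjusted p 0.00183, edgeR). All 3 were thus higher in both Lgr5-T8- libraries than in any other. Krt1 belongs to a list of epidermal keratinocyte genes of which 2 of 14 were called (14.3%, against 2.55% of all genes tested). The median of the list was 0.16, with 0.86 in batch 1 and -0.10 in batch 2. The summed level of that list was 744 to 977 CPM in Lgr5-T8-, within the 686 to 1425 CPM of the other libraries. The mean log2 level of the list, with each gene centred on its mean over the 8 libraries, was 0.40 in both Lgr5-T8- libraries and -0.40 to 0.10 in the others, so by this measure Lgr5-T8- was the highest population. The cornified layer gene Flg was at 0 in all 8 libraries, and the part of other keratinocytes in the Krt1 result was not tested.

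Lgr5-T8- cells also had genes that were low out of proportion. Sfrp1, a secreted inhibitor that binds Wnt proteins, was at 419 and 328 CPM in Lgr5+T8hi, 176 and 125 CPM in Lgr5-T8hi, 220 and 144 in Lgr5+T8- and 42.5 and 25.9 in Lgr5-T8-. The Lgr5-T8- libraries were the lowest, the Lgr5+T8hi libraries the highest, and the populations with 1 marker overlapped between them. Its interaction was -1.10 ± 0.15 (adjusted p 0.00285, edgeR), with -1.12 and -1.09 in the batches. The additive level in Lgr5-T8- was 71.3 CPM and the fitted level 33.3 CPM. Sfrp1 was the called member among 12 secreted Wnt inhibitors (8.33%). The median of that list was 0.22, with -0.10 in batch 1 and 0.58 in batch 2, so the batches differed in sign. In the wider Wnt pathway list 2 of 43 were called (4.65%). They were Lgr5, itself a sort gene, with a negative and Wnt4 with a positive interaction. Over all genes tested 2.55% were called.

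Ocln and Esyt3 were also lowest in Lgr5-T8-. Ocln, the tight junction protein occludin, was at 57.1 and 32.7 CPM in Lgr5+T8hi, 34.2 and 18.8 CPM in Lgr5-T8hi, 24.3 and 13.4 in Lgr5+T8- and 4.34 and 3.31 in Lgr5-T8-. Its interaction was -1.51 ± 0.18 (adjusted p 0.00164, edgeR). Esyt3, which tethers the endoplasmic reticulum to the plasma membrane, was at 26.6 and 30.4 CPM in Lgr5+T8hi, 27.4 and 29.9 CPM in Lgr5-T8hi, 12.6 and 16.5 in Lgr5+T8- and 5.58 and 4.49 in Lgr5-T8-. The Lgr5-T8- libraries were below all others for both genes. The interaction of Esyt3 was -1.52 ± 0.20 (adjusted p 0.00285, edgeR). Frmpd4 and Adamts6, a secreted metalloprotease, had larger negative values, -1.63 ± 0.30 and -1.57 ± 0.26 (adjusted p 0.0224 and 0.00966, edgeR). Frmpd4 was lost without replicate 1 of Lgr5+T8hi (0.0818), of Lgr5-T8hi (0.0773) or of Lgr5+T8- (0.0832), and Adamts6 without Lgr5+T8hi replicate 1 (0.0933) or Lgr5-T8hi replicate 1 (0.0532).

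Many pan-luminal genes were lowest in the same population. Of 17 pan-luminal genes, which encode luminal keratins, junction proteins and surface molecules, Lgr5-T8- was the population set apart downward in 11 (64.7%), called or not, against 14.6% of all genes tested. Krt8, Krt18, Krt19, Epcam, Cdh1, Cldn3 and Cldn7 are among the 11, but only Ocln of them was called, and 6 pan-luminal genes had a negative and 2 a positive interaction at an unadjusted p under 0.05. The summed pan-luminal level in batch 1 was 2462 CPM in Lgr5-T8- and 3417 to 3987 CPM in the other populations. In batch 2 it was 1863 CPM against 2323 to 2792 CPM, so Lgr5-T8- was lowest in each batch. The hormone-sensing luminal sum was 614 to 758 CPM in Lgr5-T8- and 788 to 1164 CPM elsewhere. Its centred mean log2 level was not lowest there, at -0.35 to -0.18 against -0.57 to -0.22 in Lgr5+T8-. The luminal progenitor and milk sum, at 2170 to 2235 CPM, was not lowest in Lgr5-T8- either. Motile cilia genes were also often set apart downward in Lgr5-T8-, 10 of 18 (55.6%). The part of luminal cells in the values of Ocln and the other genes low in Lgr5-T8- was not tested.

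The scale matters for this class. Additivity was judged on log2 levels, where a gene that each marker raises by the same factor has no interaction. In CPM, a difference of differences has the same sign in both batches for 37 of the 47 genes and the opposite sign in both for 6. For Sfrp1 it was 65.8 CPM in batch 1 and 84.2 CPM in batch 2, and for Ocln 2.92 and 3.84 CPM, all positive where the log2 values were negative. For Lgr5 it was -71.7 and -97.2 CPM and for Esyt3 -7.82 and -11.4 CPM, negative on either scale. In the other 3 large classes the sign in CPM matched the log2 sign in both batches for every gene. This covers the sign only, since a fit on a linear scale called 3 genes over all classes.

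**Figure D3:**
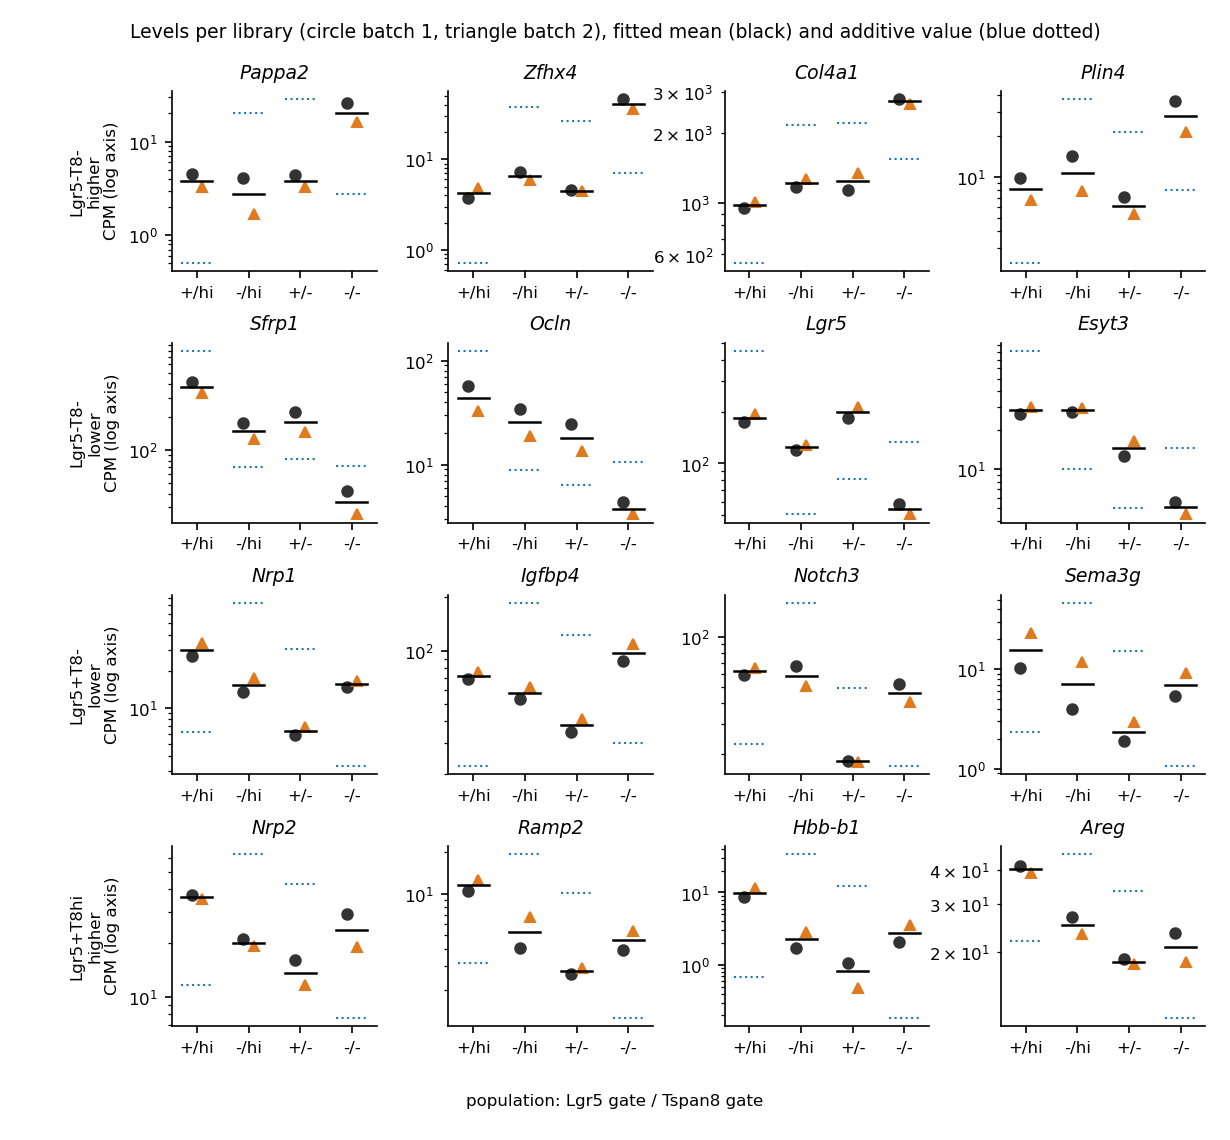
CPM per library (log axes) of 4 genes from each large class, with circles for batch 1, triangles for batch 2, black bars for the fitted population mean and blue dotted lines for the level that the other 3 populations give additively. On the x axis +/hi is Lgr5+T8hi, -/hi Lgr5-T8hi, +/- Lgr5+T8- and -/- Lgr5-T8-. Pappa2 in Lgr5-T8- has a fitted 20.4 CPM against an additive 2.73 CPM.

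The largest class held genes that were low in Lgr5+T8- cells. Nrp1, a co-receptor for class 3 semaphorins and vascular endothelial growth factor, was at 26.5 and 34.0 CPM in Lgr5+T8hi, 13.5 and 17.7 CPM in Lgr5-T8hi, 5.92 and 6.86 in Lgr5+T8- and 14.7 and 16.6 in Lgr5-T8-. Both Lgr5+T8- libraries were the lowest, and the Lgr5- populations overlapped. Its interaction was 2.25 ± 0.16 (adjusted p 9.49e-05, edgeR), with 2.29 in batch 1 and 2.21 in batch 2. The additive level in Lgr5+T8- was 30.4 CPM and the fitted level 6.38 CPM. The Tspan8 effect on Nrp1 was 2.24 ± 0.12 among Lgr5+ cells and -0.02 ± 0.11 among Lgr5- cells.

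Sema3g, a class 3 semaphorin, was at 10.3 and 23.3 CPM in Lgr5+T8hi, 4.01 and 11.7 CPM in Lgr5-T8hi, 1.89 and 2.91 in Lgr5+T8- and 5.34 and 9.19 in Lgr5-T8-. Batch 2 was higher than batch 1 in every population, and Lgr5+T8- was lowest in each batch. The interaction of Sema3g was 2.72 ± 0.29 (adjusted p 0.00121, edgeR). Sema7a, a membrane-anchored semaphorin, was at 5.95 and 2.75 CPM in Lgr5+T8- and at 7.44 to 16.1 CPM elsewhere, with 2.49 ± 0.32 (adjusted p 0.00527, edgeR). Over all genes tested 2.18% were called positive. Of 31 semaphorins, plexins and neuropilins 6 were called (19.4%), all positive, with a median of 0.32. Lgr5+T8- was the lower population in 3 of them, Lgr5-T8- the higher in 2 and Lgr5+T8hi the higher in 1. That count was 5 to 9 in the fits that left out a library.

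Notch3, a Notch receptor, was at 58.8 and 65.2 CPM in Lgr5+T8hi, 66.7 and 50.5 CPM in Lgr5-T8hi, 18.1 and 17.8 in Lgr5+T8- and 52.1 and 40.4 in Lgr5-T8-. Only Lgr5+T8- stood apart, and the other populations overlapped or lay side by side. Its interaction was 1.45 ± 0.19 (adjusted p 0.00379, edgeR), with a fitted 18.0 CPM in Lgr5+T8- against an additive 49.2 CPM. Notch3 and Heyl, a target of Notch signalling, were the called members among 20 Notch pathway genes (10%, against 2.55% of all genes tested). The median of the list was 0.01. Heyl had 1.38 ± 0.29 (adjusted p 0.029, edgeR) and was lost in 5 of the 8 fits that left out a library, with the highest adjusted p, 0.178, without Lgr5+T8hi replicate 2. Notch3 is also a marker of pericytes, the cells that wrap small vessels, and stands in that list below.

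Matrix, channel and cytokine genes had the same low point. Lamc3, a laminin chain, was at 2.93 and 2.95 CPM in Lgr5+T8-, 5.62 and 5.64 in Lgr5+T8hi, 9.70 and 8.28 in Lgr5-T8hi and 14.5 and 15.5 in Lgr5-T8-. Its 4 populations did not overlap, and the Tspan8 effect turned from 0.94 ± 0.17 in Lgr5+ to -0.74 ± 0.14 in Lgr5- cells. The interaction was 1.67 ± 0.22 (adjusted p 0.00239, edgeR). Pcsk6, a protease that matures growth factor precursors, was at 1.45 and 2.67 CPM in Lgr5+T8- and at 9.73 and 10.0 CPM in Lgr5-T8-, with 4.09 to 6.17 CPM in the T8hi libraries. It too turned sign between Lgr5+ and Lgr5- cells, and its interaction was 2.47 ± 0.29 (adjusted p 0.00164, edgeR). Kcne4, a regulatory subunit of potassium channels, was at 4.09 and 2.63 CPM in Lgr5+T8- and at 6.95 to 19.1 CPM elsewhere, with 1.73 ± 0.22 (adjusted p 0.00224, edgeR). Serpine2, an inhibitor of thrombin and plasminogen activators, was at 9.51 and 7.50 CPM against 15.2 to 22.6 CPM, with 1.10 ± 0.16 (adjusted p 0.00498, edgeR).

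Among 35 chemokines, interleukins and receptors 3 were positive and 1 was negative (median 0.14). These are 11.4% of the list, against 2.55% called over all genes tested. Il33, an alarm cytokine stored in the nucleus, was at 3.21 and 1.91 CPM in Lgr5+T8-, 14.1 and 14.5 in Lgr5+T8hi, 7.72 and 7.51 in Lgr5-T8hi and 5.34 and 4.37 in Lgr5-T8-. Its interaction was 1.82 ± 0.27 (adjusted p 0.00472, edgeR). Il1r1, the signalling receptor of interleukin 1, was at 12.7 and 8.21 CPM in Lgr5+T8-, 38.6 and 24.0 in Lgr5+T8hi, 22.3 and 18.9 in Lgr5-T8hi and 23.6 and 14.2 in Lgr5-T8-, with 1.42 ± 0.19 (adjusted p 0.00252, edgeR). Lgr5+T8- was below every other library for both genes. Il1r1 and its decoy counterpart Il1r2 were both lowest in Lgr5+T8-, where Il1r2 was at 0.661 and 0.678 CPM. The widest gap of Il1r2 set Lgr5-T8- apart as higher.

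Lgr5+T8hi cells stood apart upward in 106 genes. Nrp2, the second neuropilin, was at 37.0 and 35.1 CPM in Lgr5+T8hi, 21.0 and 19.3 CPM in Lgr5-T8hi, 16.0 and 11.6 in Lgr5+T8- and 29.2 and 19.0 in Lgr5-T8-. The Lgr5+T8hi libraries were the highest and the Lgr5+T8- libraries the lowest. Its interaction was 1.63 ± 0.19 (adjusted p 0.00183, edgeR). Areg, which encodes amphiregulin, a ligand of the epidermal growth factor receptor made by hormone-sensing luminal cells, was at 41.3 and 39.1 CPM in Lgr5+T8hi, 26.9 and 23.4 CPM in Lgr5-T8hi, 18.9 and 18.1 in Lgr5+T8- and 23.6 and 18.5 in Lgr5-T8-. Its Lgr5+T8hi libraries were clear of the rest. The interaction of Areg was 0.86 ± 0.15 (adjusted p 0.011, edgeR), a fitted 40.2 CPM against an additive 22.1 CPM, and the call was lost without Lgr5+T8hi replicate 2 (adjusted p 0.0952).

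Markers of vessels and blood were prominent among these genes. Ramp2, a receptor partner for adrenomedullin in endothelial cells, was at 10.5 and 12.7 CPM in Lgr5+T8hi, 4.04 and 6.77 CPM in Lgr5-T8hi, 2.61 and 2.91 in Lgr5+T8- and 3.94 and 5.40 in Lgr5-T8-. Its interaction was 1.87 ± 0.26 (adjusted p 0.00355, edgeR). Cd34, a surface protein of endothelial and progenitor cells, was at 48.5 and 55.5 CPM in Lgr5+T8hi, 22.5 and 32.9 CPM in Lgr5-T8hi, 16.1 and 14.3 in Lgr5+T8- and 26.9 and 33.6 in Lgr5-T8-, with 1.89 ± 0.20 (adjusted p 0.00164, edgeR). For both genes Lgr5+T8hi was highest, Lgr5+T8- lowest and the Lgr5- populations overlapped, and the widest gap of Cd34 placed it with the genes low in Lgr5+T8-. The globin gene Hbb-b1 was at 8.71 and 11.5 CPM in Lgr5+T8hi, 1.73 and 2.85 CPM in Lgr5-T8hi, 1.07 and 0.478 in Lgr5+T8- and 2.06 and 3.60 in Lgr5-T8-. Its interaction was 3.90 ± 0.48 (adjusted p 0.00382, edgeR), though reads of near-identical beta-globin genes may be split between copies.

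Lists of other cell types were called in the same direction. Against 2.18% positive over all genes tested, of 17 endothelial genes 5 were called, of 16 immune cell genes 6, of 5 erythroid genes 3, of 11 pericyte genes 5, of 16 fibroblast genes 3 and of 7 adipocyte genes 2, all with positive interactions. Their median interactions were 1.89, 2.12, 3.73, 1.18, 0.42 and 1.04, against -0.03 over all genes tested. The fibroblast median was 0.098 in batch 1 and 1.06 in batch 2. Of 11 Schwann and glial genes 0 were called in edgeR, DESeq2 or limma-voom, with 3 positive and 1 negative at an unadjusted p under 0.05 in edgeR. Members of these 7 lists made up 12 of the 106 Lgr5+T8hi genes (11.3%) and 8 of the 149 Lgr5+T8- genes (5.37%), but 1 of the 75 Lgr5-T8- higher genes and 0 of the 47 Lgr5-T8- lower genes. They were 0.502% of all genes tested. Keratinocyte and luminal genes were counted apart. The keratinocyte genes Krt1 and Krt10 were Lgr5-T8- higher, and Ocln and Lif, from luminal lists, were Lgr5-T8- lower. The other called luminal members went elsewhere, with Areg and Anxa8 Lgr5+T8hi higher and Wnt4 crossed.

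The summed endothelial level was 1191 to 1248 CPM in Lgr5+T8hi, 377 to 708 in Lgr5-T8hi, 251 to 353 in Lgr5+T8- and 421 to 438 in Lgr5-T8-. The immune sum was 86.2 to 148 CPM in Lgr5+T8hi, 55.7 to 76.6 in Lgr5-T8hi, 37.5 to 72.0 in Lgr5+T8- and 43.9 to 91.8 in Lgr5-T8-. The erythroid sum was 24.0 to 29.8, 5.22 to 9.24, 2.15 to 4.35 and 7.24 to 8.56 CPM in that order, and the pericyte sum 176 to 193, 147 to 171, 72.2 to 79.0 and 125 to 141 CPM. So Lgr5+T8hi had the highest range for all 4 sums, and Lgr5+T8- the lowest, with overlaps among the immune sums. No endothelial, immune or pericyte member was at 0 in all libraries, while the erythroid membrane gene Slc4a1 was at 0 in all 8. These sums move with the order that 214 positive genes share, and their part in those genes, Nrp1, Nrp2, Sema3g and Notch3 included, was not tested.

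Calls in these lists depended on single libraries. The endothelial count was 2 without Lgr5+T8hi replicate 1 or 2 or Lgr5-T8- replicate 1, 3 without Lgr5-T8- replicate 2, 10 or 16 without Lgr5-T8hi replicate 1 or 2, and 11 without Lgr5+T8- replicate 1. The immune count was 0 without Lgr5+T8hi replicate 2 and 1 to 3 in all other such fits except that without Lgr5-T8- replicate 2, where it was 5. The pericyte count was 1 without Lgr5+T8hi replicate 2 or Lgr5+T8- replicate 1 and 2 to 4 otherwise. Lyz2, Ushbp1, Slco2b1 and Adgrl4 had the largest interactions of well-expressed Lgr5+T8hi genes, 2.37 ± 0.44, 2.36 ± 0.34, 2.32 ± 0.35 and 2.27 ± 0.29. Lyz2 is the lysozyme of macrophages, and Adgrl4 is an adhesion receptor of endothelial cells. Lyz2 was lost without Lgr5+T8hi replicate 2 (adjusted p 0.0915), Lgr5-T8hi replicate 1 (0.0949) or Lgr5+T8- replicate 2 (0.05), and without replicate 1 of Lgr5-T8- (0.142). Ushbp1 and Slco2b1 were lost without Lgr5+T8hi replicate 1 (0.0595 and 0.065) or 2 (0.0652 and 0.0689), and Adgrl4 without Lgr5+T8hi replicate 1 (0.0505).

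**Figure D4:**
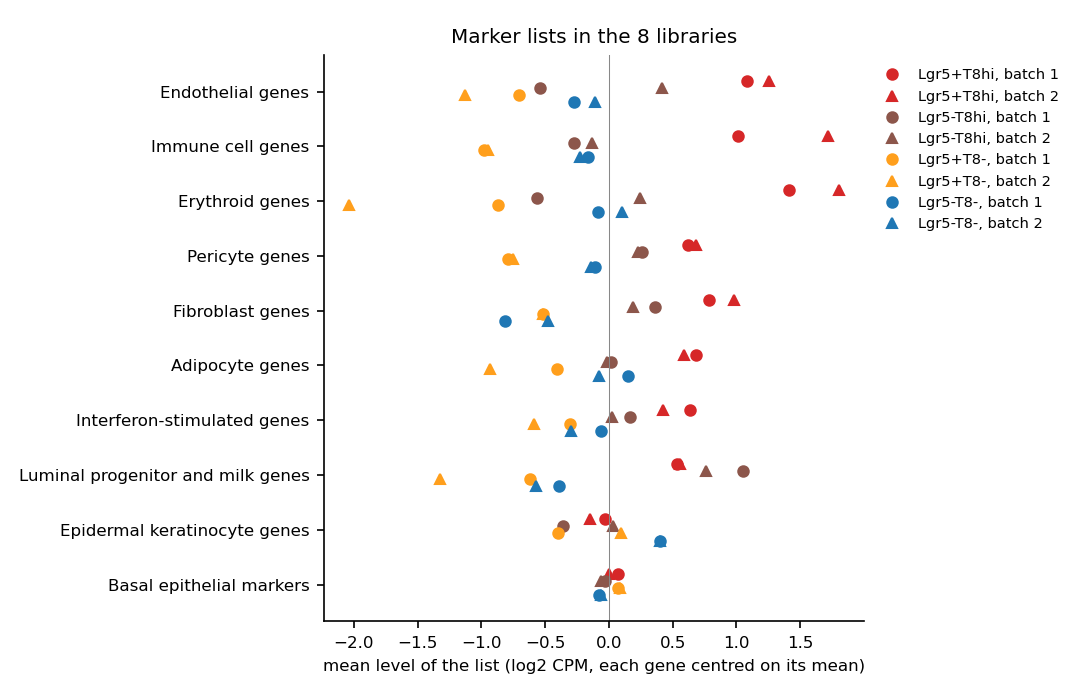
Mean level of 10 gene lists in each library, as log2 CPM with each gene centred on its mean over the 8 libraries (x axis). Colours are populations, circles batch 1 and triangles batch 2. Lgr5+T8hi is rightmost for the endothelial, immune, erythroid and pericyte lists and Lgr5+T8- leftmost, while the basal list stays near 0.

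Interferon-stimulated genes were also called in 1 direction. Of 26 tested, 8 were positive (30.8%) and 0 negative, against 2.18% and 0.363% of all genes tested. The median was 0.55, and 13 positive and 2 negative genes had an unadjusted p under 0.05. Interferon acts on many of its targets through a promoter element, the interferon-stimulated response element. The 250 bases upstream of RefSeq start sites (GRCm38.p6) were searched on both strands for GAAA and GAAA with any 2 bases between them, and overlapping matches were merged. It was present in 6 of the 8 called members with a window, Ifi44 and Cxcl9 being those without a match, and in 5 of 12 members not called. Among all tested genes with a window, 387 of 12175 (3.18%) held it. The windows of 4 called members are printed 5' to 3' on the gene's strand, with the matches in capitals, and were chosen among those that hold a match, to show where it lies.
Rsad2 (chr12:26456453-26456702, - strand): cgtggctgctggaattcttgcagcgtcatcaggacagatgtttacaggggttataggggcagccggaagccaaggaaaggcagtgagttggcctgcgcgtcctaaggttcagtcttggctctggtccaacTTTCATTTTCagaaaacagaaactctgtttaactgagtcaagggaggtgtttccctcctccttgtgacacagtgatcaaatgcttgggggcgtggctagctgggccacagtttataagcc
Ifit3 (chr19:34583279-34583528, + strand): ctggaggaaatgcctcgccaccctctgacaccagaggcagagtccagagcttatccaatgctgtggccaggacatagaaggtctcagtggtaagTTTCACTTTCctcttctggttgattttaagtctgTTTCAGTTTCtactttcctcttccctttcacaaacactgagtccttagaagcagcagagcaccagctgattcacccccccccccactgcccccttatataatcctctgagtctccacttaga
Bst2 (chr8:71537473-71537722, - strand): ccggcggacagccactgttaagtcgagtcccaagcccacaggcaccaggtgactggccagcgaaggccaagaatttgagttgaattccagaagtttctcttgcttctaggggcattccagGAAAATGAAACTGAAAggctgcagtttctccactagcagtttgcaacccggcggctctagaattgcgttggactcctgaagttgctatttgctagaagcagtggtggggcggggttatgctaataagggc
Ifit1 (chr19:34640639-34640888, + strand): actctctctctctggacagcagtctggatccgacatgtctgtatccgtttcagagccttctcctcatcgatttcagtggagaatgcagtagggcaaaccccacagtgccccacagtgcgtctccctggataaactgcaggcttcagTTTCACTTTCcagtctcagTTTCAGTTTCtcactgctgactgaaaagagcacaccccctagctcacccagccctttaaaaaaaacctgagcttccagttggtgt

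Rsad2, the antiviral enzyme viperin, passed in all 8 fits that left out a library. It was at 9.43 and 5.71 CPM in Lgr5+T8hi, 4.12 and 3.41 CPM in Lgr5-T8hi, 2.14 and 0.758 in Lgr5+T8- and 5.76 and 2.83 in Lgr5-T8-. In each batch Lgr5+T8hi was highest and Lgr5+T8- lowest. Its interaction was 2.52 ± 0.35 (adjusted p 0.00383, edgeR), with 2.61 and 2.62 in the batches. The Tspan8 effect was 2.40 ± 0.26 among Lgr5+ and -0.12 ± 0.24 among Lgr5- cells.

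Ifit3, an interferon-induced antiviral protein, was at 17.4 and 12.0 CPM in Lgr5+T8hi, 10.3 and 7.94 CPM in Lgr5-T8hi, 3.75 and 3.03 in Lgr5+T8- and 5.03 and 4.56 in Lgr5-T8-. All 4 populations were separate, with T8hi above T8- at either level of Lgr5. Its interaction was 1.19 ± 0.22 (adjusted p 0.0168, edgeR). Bst2, the tetherin that holds virus particles at the cell surface, was at 12.8 and 16.6 CPM in Lgr5+T8hi and at 6.21 to 10.8 CPM elsewhere, with 1.10 ± 0.21 (adjusted p 0.018, edgeR). Ifit1, which binds foreign RNA, was at 39.8 and 21.2 CPM in Lgr5+T8hi and at 6.22 to 16.9 CPM elsewhere, with 1.04 ± 0.20 (adjusted p 0.0185, edgeR). For these 3 genes both Lgr5+T8hi libraries were above all others. Ifit3 was lost without Lgr5+T8hi replicate 1 (adjusted p 0.116) or 2 (0.0529), Lgr5-T8hi replicate 1 (0.0627) or Lgr5+T8- replicate 2 (0.0532). Bst2 was lost without the same libraries (0.102, 0.107, 0.0701 and 0.0842), and Ifit1 without replicate 1 of Lgr5+T8hi (0.147) or Lgr5-T8hi (0.0892) or Lgr5+T8- replicate 2 (0.0798). The list's count was 1 without Lgr5+T8hi replicate 1, 2 without Lgr5+T8hi replicate 2 or Lgr5-T8hi replicate 1, 4 when Lgr5+T8- replicate 2 was left out and 6 or 7 otherwise. The summed level of the list was 699 to 865 CPM in Lgr5+T8hi and 528 to 767 CPM in the other libraries, which overlap. The centred mean log2 level of the list did not overlap, with 0.43 to 0.63 in Lgr5+T8hi and at most 0.16 elsewhere. The centred immune cell list was highest in Lgr5+T8hi as well, and the part of immune cells in these values was not tested. By contrast the T-cell receptor constant genes Trbc2 and Trbc1, not in that list, had negative interactions (-1.18 and -1.03). Lgr5+T8- was the higher population for both.

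Crossed genes, in which Lgr5+T8hi and Lgr5-T8- lie together on 1 side and the single-marker populations on the other, numbered 23. In 21 the first pair was higher. Col13a1, a membrane-spanning collagen found at cell junctions, was at 1.82 and 1.82 CPM in Lgr5+T8hi, 3.27 and 2.76 in Lgr5-T8-, 0.742 and 0.666 in Lgr5-T8hi and 0.598 and 0.678 in Lgr5+T8-. The pairs did not overlap. Its interaction was 3.61 ± 0.40 (adjusted p 0.00121, edgeR), and the Tspan8 effect was 1.51 ± 0.30 among Lgr5+ and -2.09 ± 0.27 among Lgr5- cells. Wnt4, a Wnt ligand made by hormone-sensing luminal cells, was at 7.12 and 7.64 CPM in Lgr5+T8hi, 7.12 and 6.65 in Lgr5-T8-, 4.42 and 4.42 in Lgr5-T8hi and 5.54 and 3.43 in Lgr5+T8-. Its interaction of 1.35 ± 0.28 (adjusted p 0.0271, edgeR) was lost without Lgr5+T8hi replicate 1 (0.086) or 2 (0.181), Lgr5-T8hi replicate 1 (0.11) or Lgr5+T8- replicate 2 (0.0897). Gpr3, a receptor that raises cyclic AMP, was crossed the other way, with a negative interaction of -0.60 ± 0.13 (adjusted p 0.0314, edgeR) that was lost in 6 of the 8 such fits, up to 0.221 without Lgr5-T8hi replicate 2.

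Few called genes set Lgr5-T8hi apart, which was also rare over all genes tested (3.35% higher and 3.35% lower). Mybph, a myosin-binding protein, was at 117 and 105 CPM there and at 55.9 to 77.2 CPM elsewhere, with an interaction of -0.66 ± 0.14 (adjusted p 0.0348, edgeR). Eln, the elastin of stretchable matrix, was at 559 and 510 CPM there and at 594 to 901 CPM elsewhere, with 0.73 ± 0.15 (adjusted p 0.0281, edgeR). In both genes the Lgr5-T8hi libraries lay outside the range of the others. Mybph was lost in 5 of 8 fits that left out a library, up to 0.262 without Lgr5+T8hi replicate 1, and Eln in 4, up to 0.218 without Lgr5+T8hi replicate 2. Lgr5+T8- was the higher population in 6 genes (0.0363%) and Lgr5+T8hi the lower in 3 (0.0182%), with medians of -0.92 and -0.88.

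The remaining lists gave 0 to 4 calls each. Where any member was called, the share was 3.12% to 20% of the list. In lists this short 1 call already exceeds the 2.55% over all genes tested, so being above it is no excess in itself. Among signalling lists, 3 of 36 TGF-beta and BMP pathway genes, 1 of 13 Hedgehog genes and 2 of 20 FGF pathway genes were called. Among structural and membrane lists, 2 of 22 contractile genes, 3 of 27 matrix proteases and inhibitors, 4 of 20 serpins (Serpine2, Serpinb2, Serpinb1a and Serpina3g, all positive), 3 of 26 potassium channels, 1 of 31 calcium and TRP channels and 1 of 32 slit, netrin and ephrin genes were called. Among luminal lists, 1 of 14 progenitor and milk genes, 2 of 17 hormone-sensing genes and 2 of 17 pan-luminal genes were called. No member was called among 44 ribosomal protein genes, 40 proliferation genes, 24 immediate early genes, 18 motile cilia genes or 7 Eya, sine oculis homeobox and Dach regulators, in edgeR, DESeq2 or limma-voom. At an unadjusted p under 0.05 in edgeR, 0, 5, 2, 4 and 1 of these had a negative and 0 a positive interaction. The median over the proliferation genes was 0.35 in batch 1 and -1.14 in batch 2, so the batches differed in sign. At 2.55% few calls fall in lists of these sizes, so 0 calls does not set them apart.

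**Figure D5:**
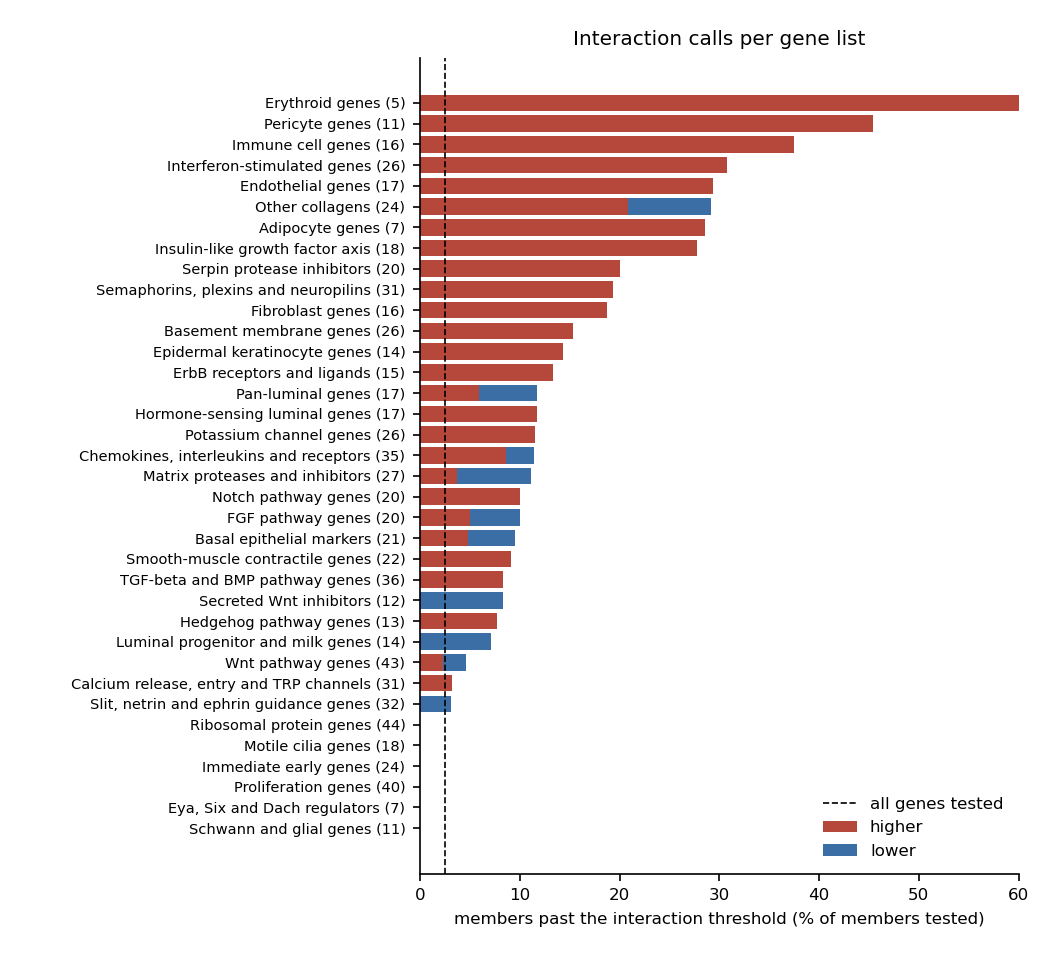
Share of each list's tested members past the interaction threshold (x axis, %), with the number tested in brackets, red for positive and blue for negative interactions. The dashed line marks 2.55%, the share over all genes tested. The erythroid, pericyte and immune lists reach furthest, and 6 lists have no called member.

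Many calls rested on single libraries. Of the 421 genes, 77 passed in each of the 8 fits that left out 1 library, in which the remaining library of that population was assumed to vary like the others. They were 31 of the 149 Lgr5+T8- lower genes, 18 of the 75 Lgr5-T8- higher genes, 14 of the 106 Lgr5+T8hi genes, 8 of the 47 Lgr5-T8- lower genes, 4 crossed genes and 2 of other classes. Lgr5, Pappa2, Zfhx4, Nrp1, Igfbp4, Notch3, Sfrp1 and Ocln are among them. Krt10, Lif, Anxa8, Serpinb1a, Serpina3g, Ifi44 and Cxcl9, named above without their lost calls, are not.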

How the data were processed

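Single-end RNA-seq libraries, 2 for each of 4 sorted populations, were used as deposited, in the form of unnormalized read counts for 27164 Entrez genes. The submitters' processing notes list featureCounts, CASAVA 1.8.2, limma 3.24.14, edgeR 3.10.2 and the build mm10 (GRCm38) without saying what each did. The aligner and the strand setting are not given in the sources used here, so overlapping and near-identical genes are uncertain. RefSeq (GRCm38.p6) gave symbols for 25260 identifiers.

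The interaction was tested with edgeR 4.0.16 (R 4.3.3) by the robust quasi-likelihood F-test, two-sided, with population and batch in the model, TMM scaling and filterByExpr at a minimum count of 10. This tested 16526 genes with 3 residual degrees of freedom. P-values were adjusted by Benjamini-Hochberg over these genes, with a threshold of 0.05. The labels state the batch, and deviations from the population means were correlated between libraries of 1 batch (r across genes 0.372 to 0.511 over 6 pairs of populations).

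Named genes are Lgr5, Tspan8, the 4 largest interactions of each single-population class and the 3 largest of each crossed class (mean of at least 5 CPM, same sign in both batches, unnamed genes skipped), and up to 4 called members of each of 36 lists; 1 named gene is not reported here. Il1r2, Ifit1, the unnamed short genes and the synthetase list were added after their values were seen. The members and lists were chosen with earlier results of these data known. Alternatives were no block, RLE scaling, no filter, a minimum of 1 CPM in 4 libraries, limma-voom and a linear scale (limma 3.58.1), DESeq2 1.42.0, each batch alone, and leaving out each library.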

Additional observations from a re-analysis of the deposited data

Results flagged for a closer look

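Each result here is a difference between the Tspan8 effects in Lgr5+ and Lgr5- cells that was itself tested, by the interaction term in edgeR. It passed an adjusted p of 0.05 with a positive value in 361 genes and with a negative value in 60. By rule, the named genes and their log2 interactions were as follows. Lgr5 itself had -1.30. Where Lgr5-T8- was high they were Serpinb2 5.41, Lars2 3.43, Pappa2 2.90 and Zfhx4 2.56, and where it was low Frmpd4 -1.63, Adamts6 -1.57, Esyt3 -1.52 and Ocln -1.51. Where Lgr5+T8- was low they were Sema3g 2.72, Sema7a 2.49 and Pcsk6 2.47, and where it was high Trbc2 -1.18, Trbc1 -1.03, Lipg -0.80 and Pamr1 -0.78. The T-cell receptor constant genes Trbc1 and Trbc2 are near-identical copies between which reads may be split. Where Lgr5+T8hi was high they were Lyz2 2.37, Ushbp1 2.36, Slco2b1 2.32 and Adgrl4 2.27, and where it was low Brinp3 -0.94, Hpse2 -0.88 and Tenm2 -0.68. Where Lgr5-T8hi was high the value was Mybph -0.66, and where it was low they were Eln 0.73 and Sorcs2 0.68. Crossed genes were Rapgef3 1.41, Wnt4 1.35, Mall 1.34 and Gpr3 -0.60. Of the genes in this paragraph, Lgr5, Pappa2, Zfhx4, Esyt3, Ocln, Sema3g, Sema7a and Pcsk6 passed in all 8 fits that left out 1 library. Without Lgr5+T8hi replicate 1, calls were lost for Brinp3 (adjusted p 0.178), Hpse2 (0.169), Tenm2 (0.27), Sorcs2 (0.122), Trbc2 (0.155), Trbc1 (0.17), Lipg (0.101), Pamr1 (0.303) and Mall (0.0817). Those genes and Rapgef3 were also lost without Lgr5+T8hi replicate 2 (0.0505 to 0.16). Leaving out Lgr5-T8hi replicate 1 lost Brinp3, Hpse2, Tenm2, Sorcs2, Trbc2, Trbc1, Lipg and Pamr1 (0.0524 to 0.275), and replicate 2 of it lost Hpse2, Tenm2, Sorcs2, Lipg and Pamr1 (0.0559 to 0.155). Leaving out Lgr5+T8- replicate 1 lost Brinp3, Tenm2, Sorcs2, Trbc2, Trbc1 and Pamr1 (0.058 to 0.159), and replicate 2 of it lost Hpse2, Tenm2, Sorcs2, Trbc2, Trbc1, Lipg, Pamr1, Rapgef3 and Mall (0.0506 to 0.172). Without Lgr5-T8- replicate 1 Brinp3 was lost (0.0634), and without its replicate 2 Tenm2 and Pamr1 (0.059 and 0.0606).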

How the results depend on the processing

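Without the replicate block, 1 gene passed with a positive and 0 with a negative interaction (835 and 125 at an unadjusted p under 0.05). That gene was in the Lgr5-T8- higher class, with 0 in every other class. All 421 genes kept their sign, which is no check, since the block hardly alters the estimates in this balanced design. On a linear scale, with limma on CPM relative to each gene's mean, 3 genes passed with a positive and 0 with a negative interaction (1102 and 217 unadjusted), 1 in the Lgr5+T8hi higher, 2 in the Lgr5-T8- higher and 0 in the other classes. There 7 of the 421 genes had the opposite sign, and the values of Tspan8 (1.00), Frmpd4 (0.0554), Ocln (0.144) and Sfrp1 (0.405), in units of the mean level, were reversed. With no count filter 91 genes were negative and 19 fell in the small single-population classes. With at least 1 CPM in 4 libraries 39 were negative and 12 crossed. RLE scaling, DESeq2 and limma-voom kept every count within 1.5 times. Leaving out 1 library gave 104 to 422 positive and 14 to 162 negative genes. Per class it gave 29 to 173 for Lgr5+T8hi higher, 40 to 178 for Lgr5+T8- lower, 26 to 137 for Lgr5-T8- higher, 13 to 131 for Lgr5-T8- lower, 2 to 23 for the small single-population classes and 7 to 48 crossed. The fewest calls came without a Lgr5+T8hi library and the most without Lgr5-T8- replicate 2 for the positive and negative counts. The share of positive calls was 85.7%, and 73.0% and 72.3% without Lgr5-T8- replicate 1 and 2. The cause was not tested. With 2 libraries per population and 3 residual degrees of freedom, the number of libraries limits the precision.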
